A study of Mus musculus with 4 samples.

Results

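Interferon signalling genes and interferon-stimulated genes (ISGs) were followed in primary cultures of newborn mouse prefrontal cortex (PFC) grown with or without fibroblast growth factor 2 (FGF2). The group holds 42 genes of the 55421 in the count files, taken by name: 4 receptor subunits, 7 transcription factors, 2 feedback inhibitors, 5 nucleic acid sensors and RNA enzymes, 6 genes of the ubiquitin, ISG15 and ADP-ribose systems, 12 antiviral effectors and 6 other ISGs. PFC tissue of wild-type C57BL/6 mice at postnatal day 0 was dissociated with papain and cultured for 10 days in neurobasal medium with B27 and GlutaMAX, which both groups received. The FGF2 group was given 5 ng/mL FGF2 in addition and the no FGF2 group was not, with 2 total RNA libraries each, numbered 1 and 2 as in their titles. How many animals went into a culture is not stated, and the methods class samples other than 2 human stages as technical replicates, so the libraries of a group may share a culture and the p-values may then cover technical spread only. Counts on genes totalled 9166432 and 9907613 in the libraries with FGF2 and 10460236 and 10799886 in those without. Levels are given as CPM (counts scaled to library size with TMM factors, as is usual for RNA-seq), and differences as log2 fold changes of FGF2 over no FGF2 with the standard error (SE) and the adjusted p-value of the edgeR quasi-likelihood test over 17144 genes, where a gene counted as risen or fallen below 0.05.

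Interferons are secreted proteins that put cells into an antiviral state. Type I interferons bind the receptor of Ifnar1 and Ifnar2, whose kinases Jak1 and Tyk2 activate Stat2. Stat2 and Irf9 are parts of the complex ISGF3, which binds the interferon-stimulated response element (ISRE) before ISGs. Interferon gamma binds the receptor of Ifngr1 and Ifngr2, which acts through Jak1 and Jak2 on genes with gamma-activated sites (GAS), and Irf1 is among its first targets. In brain tissue astrocytes, microglia and neurons all carry interferon receptors, and a basal level of ISG expression exists without infection.

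Most of the 42 genes were higher with FGF2, and the genes did not move by a like amount. In all, 31 genes (73.8%) rose, 1 fell, 7 did not pass and 3 had too few counts to be tested, where 20.7% of all tested genes rose, 19.9% fell and 40.5% thus passed in either direction. A rise of more than 1 on the log2 scale was found for 16 of the 42, where 5.22% of all tested genes rose as much. The libraries of the 2 groups did not overlap for 38 of the genes, with FGF2 on top for 35 (as for 33.6% of all tested genes) and below for 3 (as for 33.4%). These counts are of all 42 genes and include Zbp1 (on top) and Oasl1 (below), which were not tested. Over the 39 tested members the log2 fold changes had a median of 0.80, against -0.00082 over all tested genes. With DESeq2, 23 of the 31 rose, where 11.6% of the genes given an adjusted p-value by that tool rose and 10.8% fell. The transcripts were measured in bulk, so a change in the number of cells that express a gene and a change in RNA per cell cannot be told apart. The members were chosen with earlier results of these data known, so these shares describe the group and are no independent test.

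**Figure D1:**
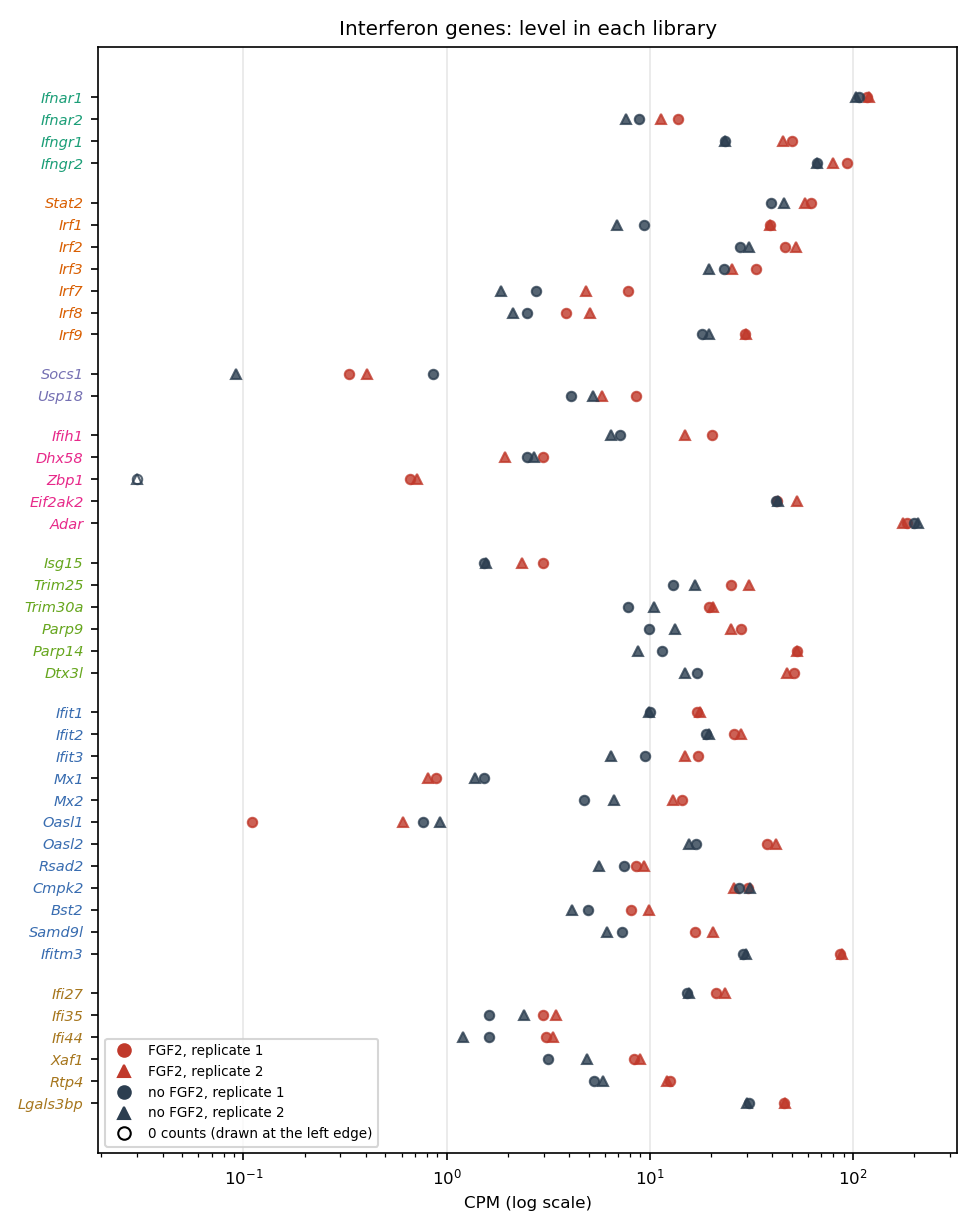
Level of each of the 42 genes in each library in CPM on a log axis, grouped by role as in the text (green receptors, orange transcription factors, purple feedback inhibitors, pink sensors and RNA enzymes, light green ubiquitin, ISG15 and ADP-ribose genes, blue effectors, brown other ISGs). Red symbols are libraries with FGF2 and dark symbols those without, and the red pair lies to the right of the dark pair for 35 genes, most widely, among genes with counts in every library, for Parp14 and Irf1. The hollow symbols of Zbp1 stand for 0 counts.

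The promoter windows of some members hold letters like those of the ISRE. RefSeq promoter windows (GRCm38.p6, 250 bases before to 50 after each start) were matched by symbol for 33 of the 42 members, with none for Usp18, Dhx58, Zbp1, Parp9, Parp14, Mx1, Mx2, Ifi27 and Rtp4. An ISRE-like motif, read on both strands as a GAAA block, any 2 bases and a further GAAA block, was found in 12 of the 33 (36.4%), where 3.99% of all genes with a window hold it. Of these 12 genes, 8 rose, 3 did not pass and 1 was not tested, with a median log2 fold change of 0.80. Of the 21 members without a match, 17 rose, 1 fell, 2 did not pass and 1 was not tested, also with a median of 0.80. Members with and without an exact match in these windows thus had like medians. Members without a window, among them Parp14, Parp9 and Mx2, are in neither set. A member without a match may still hold a similar element with other spacing or outside the window. Whether the motif goes with the rise was therefore not tested. The 250 bases before the start are shown for 3 genes that rose (Ifit1, Ifit3 and Bst2) and 2 that did not pass (Isg15 and Rsad2), with ISRE-like matches in capitals, overlapping matches joined.
Ifit1 (chr19:34640639-34640888, plus strand): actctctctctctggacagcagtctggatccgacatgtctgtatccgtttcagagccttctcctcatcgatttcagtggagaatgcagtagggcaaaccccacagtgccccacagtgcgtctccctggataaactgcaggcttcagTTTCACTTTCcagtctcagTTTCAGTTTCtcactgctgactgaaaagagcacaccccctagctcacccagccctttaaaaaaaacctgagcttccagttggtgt
Ifit3 (chr19:34583279-34583528, plus strand): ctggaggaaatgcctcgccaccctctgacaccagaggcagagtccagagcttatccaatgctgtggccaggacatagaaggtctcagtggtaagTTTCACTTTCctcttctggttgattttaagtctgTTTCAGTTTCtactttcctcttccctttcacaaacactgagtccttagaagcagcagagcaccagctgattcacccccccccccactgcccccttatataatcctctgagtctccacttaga
Bst2 (chr8:71537473-71537722, minus strand): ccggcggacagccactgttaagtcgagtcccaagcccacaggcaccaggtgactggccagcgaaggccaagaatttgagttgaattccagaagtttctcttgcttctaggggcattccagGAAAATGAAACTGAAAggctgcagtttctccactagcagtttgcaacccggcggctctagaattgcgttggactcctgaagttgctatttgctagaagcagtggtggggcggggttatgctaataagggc
Isg15 (chr4:156200819-156201068, minus strand): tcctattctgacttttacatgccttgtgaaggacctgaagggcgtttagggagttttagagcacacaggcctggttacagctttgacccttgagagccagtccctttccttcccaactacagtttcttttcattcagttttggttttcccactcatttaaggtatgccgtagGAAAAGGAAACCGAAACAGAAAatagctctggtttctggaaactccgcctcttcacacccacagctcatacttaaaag
Rsad2 (chr12:26456453-26456702, minus strand): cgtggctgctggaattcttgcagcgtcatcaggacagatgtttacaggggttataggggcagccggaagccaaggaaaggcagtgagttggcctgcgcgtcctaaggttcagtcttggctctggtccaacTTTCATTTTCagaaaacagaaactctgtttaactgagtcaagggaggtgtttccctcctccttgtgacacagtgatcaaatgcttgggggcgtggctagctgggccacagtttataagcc

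**Figure D2:**
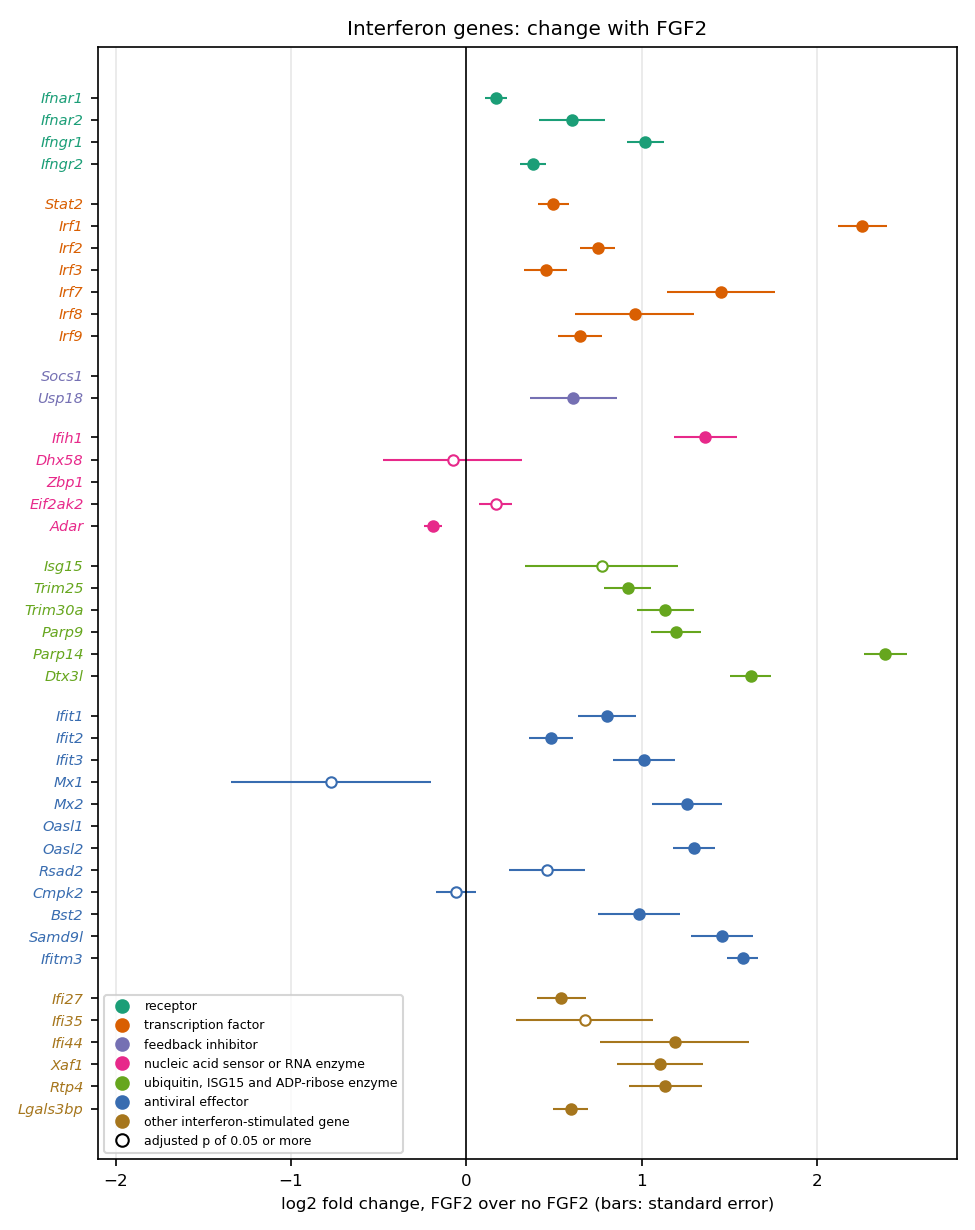
The log2 fold change of FGF2 over no FGF2 for the 39 tested genes, with bars of 1 standard error, grouped and coloured by role. Filled points had an adjusted p-value below 0.05 (edgeR), and these lie to the right of 0 for 31 genes and to the left for Adar alone, while Socs1, Zbp1 and Oasl1 have no point.

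All 4 receptor subunits rose, where 20.7% of all tested genes rose, and Ifngr1 rose most. With DESeq2 2 of the 4 rose, against 11.6% of the genes given an adjusted p-value by that tool. Ifngr1, the ligand-binding chain of the interferon gamma receptor on chromosome 10 (19591949 to 19610229, mm10), had 50.3 and 45.2 CPM with FGF2 and 23.4 and 23.6 CPM without. The mean was 2.03-fold higher with FGF2 and the groups lay well apart (log2 fold change 1.02, SE 0.11, edgeR adjusted p = 2.6e-20). Its partner chain Ifngr2 had 93.7 and 80.1 CPM with FGF2 and 66.4 and 66.9 without, which gave 0.38 on the log2 scale (SE 0.07, edgeR adjusted p = 2.1e-06). Of the type I receptor, which senses interferon alpha and beta, Ifnar1 had 117 and 120 CPM with FGF2 and 107 and 104 without. Its rise of 0.17 on the log2 scale was the smallest among the members that rose (edgeR adjusted p = 0.022), and the groups did not overlap. Ifnar2 had 13.8 and 11.4 CPM with FGF2 and 8.85 and 7.67 without, which gave 0.60 on the log2 scale (edgeR adjusted p = 0.0046). Per kilobase of exon, Ifnar1 and Ifngr2 stood level without FGF2, at 17.7 CPM per kb each, above Ifngr1 at 8.25 and Ifnar2 at 2.48. With DESeq2 neither chain of the type I receptor passed (adjusted p = 0.20 for Ifnar1 and 0.14 for Ifnar2). When 1 library was left out, Ifnar1 did not pass without FGF2 replicate 2 (log2 fold change 0.15) or without no FGF2 replicate 1 (0.18) or 2 (0.15), and Ifnar2 did not pass without FGF2 replicate 1 (0.46) or no FGF2 replicate 2 (0.50).

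All 7 transcription factors rose, led by Irf1, where 20.7% of all tested genes rose. With DESeq2 5 of the 7 rose, against 11.6% of the genes given an adjusted p-value by that tool. Irf1, an activator that interferon gamma and inflammatory signals are known to induce, lies on chromosome 11 from 53770014 to 53778374. It had 39.0 and 38.8 CPM with FGF2 and 9.33 and 6.93 CPM without. The libraries with FGF2 were nearly identical, and the mean was 4.79-fold higher (log2 fold change 2.26, SE 0.14, edgeR adjusted p = 2.3e-56). Per kilobase of exon it stood at rank 26 of the 42 members without FGF2 and at rank 10 with FGF2. Of its 2 promoter windows, the first holds a GAS-like match, TTCNNNGAA, whose first base is at position -90 from that window's start site, and the second holds none. Such a match is in at least 1 window of 11 of the 33 members (33.3%) and of 9.55% of all genes. Of these 11 members 8 rose, 1 fell and 2 did not pass, with a median log2 fold change of 0.67. Of the 22 without a match 17 rose, 3 did not pass and 2 were not tested, with a median of 0.97. The match is in capitals in the first window's sequence of Irf1, shown because this factor rose most.
Irf1 (chr11:53769764-53770013, plus strand): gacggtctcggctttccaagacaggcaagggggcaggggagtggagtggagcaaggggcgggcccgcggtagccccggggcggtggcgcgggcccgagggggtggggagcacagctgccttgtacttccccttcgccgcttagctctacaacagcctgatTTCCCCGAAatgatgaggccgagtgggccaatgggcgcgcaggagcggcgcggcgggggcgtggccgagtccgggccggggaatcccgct

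Irf7, which amplifies type I interferon production, had 7.82 and 4.88 CPM with FGF2 and 2.76 and 1.85 without. It was low in every library but did not overlap between the groups (log2 fold change 1.45, SE 0.31, edgeR adjusted p = 1.3e-05). Irf7 shares 45 exonic bases on the opposite strand with Phrf1, which had 894 to 1011 counts. Irf8, a factor of microglia and other myeloid cells, had 3.86 and 5.08 CPM with FGF2 and 2.47 and 2.12 without (log2 fold change 0.96, edgeR adjusted p = 0.014). Of 14 microglial and macrophage markers 9 were tested and 4 rose (28.6% of the 14, against 20.7% of all tested genes). These 4 were Cx3cr1, Csf1r, C1qb and Ptprc, which are named after their values were seen. Of the others 0 fell, 5 did not pass and 5 were not tested. The libraries of the groups overlapped for 7 of the 14 and had FGF2 on top for 7, as for 33.6% of all tested genes. With DESeq2 2 of the 14 rose, near the 11.6% of the genes given an adjusted p-value by that tool. Over the 9 tested markers the log2 fold changes had a median of 0.84 and ran from 0.21 to 2.07. The summed level of the 14 markers was 31.7 and 35.2 CPM with FGF2 and 20.0 and 17.8 without. Siglech was at 0 in every library and Aif1 had between 3 and 5 counts. Whether these cells contributed to the rise of Irf8 or of other members was not tested.

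Stat2 and Irf9 of the complex ISGF3 rose, with smaller log2 fold changes than Irf1. Stat2 had 62.2 and 58.2 CPM with FGF2 and 39.4 and 45.8 without, and Irf9 had 29.3 and 29.6 with FGF2 and 18.0 and 19.5 without. Their log2 fold changes were 0.50 (SE 0.09) and 0.65 (SE 0.13), with edgeR adjusted p-values of 1.5e-07 and 1.4e-06. Irf9 shares 123 exonic bases with Rnf31 (274 to 365 counts) and 128 bases at 95.3% identity with Mdc1 (684 to 821 counts). Irf2, a relative of Irf1 that competes for its sites, had 46.1 and 52.5 CPM with FGF2 and 27.8 and 30.9 without (log2 fold change 0.75, edgeR adjusted p = 1.3e-12). Irf3, which switches on interferon genes after viral sensing, had 33.4 and 25.3 CPM with FGF2 and 23.2 and 19.6 without (log2 fold change 0.45, edgeR adjusted p = 8.8e-04). With DESeq2 Irf3 and Irf8 no longer passed (adjusted p = 0.10 and 0.19). Irf3 did not pass when FGF2 replicate 1 (log2 fold change 0.24) or no FGF2 replicate 2 (0.33) was left out, and Irf8 when FGF2 replicate 2 (0.74) or no FGF2 replicate 2 (0.85) was.

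Of the feedback inhibitors, Socs1, which blocks JAK kinases, was at the edge of detection. Its counts were 3 and 4 with FGF2 and 9 and 1 without, so the groups overlapped and it was not tested. Usp18, a protease that removes ISG15 and dampens signalling at Ifnar2, had 8.60 and 5.80 CPM with FGF2 and 4.09 and 5.26 without. Its log2 fold change of 0.61 (SE 0.25, edgeR adjusted p = 0.037) was the nearest to the threshold among the members that rose. It did not pass with DESeq2 (adjusted p = 0.32), nor when FGF2 replicate 1 (log2 fold change 0.30), no FGF2 replicate 1 (0.44) or no FGF2 replicate 2 (0.80) was left out.

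The nucleic acid sensors and RNA enzymes went different ways. Ifih1, which encodes the long double-stranded RNA sensor MDA5, had 20.3 and 14.8 CPM with FGF2 and 7.14 and 6.47 without (log2 fold change 1.36, SE 0.18, edgeR adjusted p = 4.8e-13). Dhx58, which encodes its helper LGP2, had 2.98 and 1.93 CPM with FGF2 and 2.47 and 2.68 without, so the groups overlapped (log2 fold change -0.08, SE 0.40, edgeR adjusted p = 0.90). Eif2ak2, the kinase PKR that stops translation on double-stranded RNA, had 42.3 and 52.8 CPM with FGF2 and 41.97 and 42.86 without. Only replicate 2 with FGF2 stood apart, and the log2 fold change of 0.17 did not pass (SE 0.09, edgeR adjusted p = 0.14), although it was 0.31 and passed when FGF2 replicate 1 was left out. Zbp1, a sensor of Z-form nucleic acids linked to cell death, was at 6 and 7 counts in the FGF2 libraries and at 0 and 0 in the others. It was below the expression minimum and so not tested, and it passed when no minimum was set (edgeR adjusted p = 0.0086). Against a limit of 3 counts per library without FGF2 it was at least 2.39-fold higher. Adar, which edits adenosines in double-stranded RNA and so hides the cell's own RNA from MDA5, was the member that fell. Its levels were 184 and 175 CPM with FGF2 and 200 and 209 without, a small and non-overlapping difference (log2 fold change -0.19, SE 0.05, edgeR adjusted p = 7.0e-04). When no FGF2 replicate 2 was left out, it was -0.16 and did not pass. Adar shares 1365 exonic bases with Chrnb2 on the opposite strand, which fell by 0.64 on the log2 scale (edgeR adjusted p = 3.0e-11), and without a stated strand setting the reads of the shared stretch cannot be told apart.

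Parp14 had the largest log2 fold change of all tested members, and its neighbours Dtx3l and Parp9 rose as well. Parp14, a mono-ADP-ribosyltransferase known to modulate STAT signalling, lies on chromosome 16 from 35832874 to 35871544. It had 53.2 and 53.2 CPM with FGF2 and 11.5 and 8.77 without, 5.25-fold higher in the mean (log2 fold change 2.39, SE 0.12, edgeR adjusted p = 7.0e-80). Dtx3l and Parp9 lie close by (35926511 to 35939151 and 35938470 to 35972605), and their products form a complex of a ubiquitin ligase and an ADP-ribosyltransferase. Dtx3l had 51.0 and 47.6 CPM with FGF2 and 17.1 and 14.9 without (log2 fold change 1.62, SE 0.12, edgeR adjusted p = 4.7e-43). Parp9 had 28.2 and 25.2 CPM with FGF2 and 9.90 and 13.3 without (log2 fold change 1.20, SE 0.14, edgeR adjusted p = 6.7e-16). These 2 genes share 458 exonic bases on opposite strands, where the source of a read is uncertain, whereas Parp14 shares 110 bases only with Gm49730, which had at most 10 counts. Dtx3l also shares 154 bases at 95.5% identity with Slc3a2 (1405 to 1888 counts) and similar stretches with many other genes.

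Of the other genes of this role Trim25 and Trim30a rose and Isg15 did not pass. Trim25, a ubiquitin ligase that activates the RNA sensor RIG-I, had 25.1 and 30.8 CPM with FGF2 and 12.9 and 16.6 without (log2 fold change 0.92, edgeR adjusted p = 5.8e-11). Trim30a, a mouse TRIM protein, had 19.6 and 20.5 CPM with FGF2 and 7.80 and 10.4 without (log2 fold change 1.14, edgeR adjusted p = 2.4e-11). Isg15, the ubiquitin-like modifier whose promoter is shown above, was at 27 and 23 counts in the FGF2 libraries and at 16 and 17 in the others. Both libraries with FGF2 were above the others, at 2.98 and 2.34 against 1.52 and 1.57 CPM, but the log2 fold change of 0.77 did not pass (SE 0.43, edgeR adjusted p = 0.15). A copy annotated as AC151275.1 shares 482 bases of Isg15 at 95.2% identity and is listed at 0 counts.

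Among the 12 antiviral effectors 8 rose, 3 did not pass and 1 was not tested, where 20.7% of all tested genes rose. With DESeq2 7 of the 12 rose, against 11.6% of the genes given an adjusted p-value by that tool. Ifitm3, a membrane protein that blocks the fusion of viruses with the cell, was the most abundant of all 42 members per kilobase of exon, at 43.1 CPM per kb without FGF2 and 129 with FGF2. It lies on chromosome 7 from 141009586 to 141010770 and had 86.3 and 88.2 CPM with FGF2 and 28.7 and 29.7 without. The replicates lay close together and the groups far apart (log2 fold change 1.58, SE 0.09, edgeR adjusted p = 8.5e-70). Samd9l, an inhibitor of translation and growth, had 16.6 and 20.4 CPM with FGF2 and 7.33 and 6.19 without (log2 fold change 1.46, edgeR adjusted p = 2.9e-15), and shares 246 bases at 95.1% identity with Gm20559. Oasl2, a relative of the oligoadenylate synthetases, had 37.8 and 41.9 CPM with FGF2 and 16.9 and 15.5 without (log2 fold change 1.30, edgeR adjusted p = 1.5e-25). Bst2, the tetherin that holds budding virus at the cell surface, had 8.05 and 9.96 CPM with FGF2 and 4.95 and 4.16 without (log2 fold change 0.99, edgeR adjusted p = 1.3e-04).

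The Ifit genes, whose products bind viral RNA, lie near one another on chromosome 19, and all 3 members rose. Ifit3 had 17.2 and 14.9 CPM with FGF2 and 9.42 and 6.47 without (log2 fold change 1.02, SE 0.18). Ifit1 had 17.1 and 17.6 CPM with FGF2 and 9.99 and 9.88 without (log2 fold change 0.80, SE 0.16). Ifit2 had 26.0 and 28.0 CPM with FGF2 and 18.9 and 19.7 without (log2 fold change 0.48, SE 0.13). In each the groups were apart, with edgeR adjusted p-values of 8.4e-08, 6.8e-06 and 6.1e-04, and Ifit2 narrowly missed the threshold with DESeq2 (adjusted p = 0.057). Ifit3 shares 1700 bases at 97.8% identity with Ifit3b, which had 32 to 57 counts, so the counts of both are uncertain. Ifit3b, which lies between Ifit3 and Ifit1 and is no member, did not pass (log2 fold change 0.63, edgeR adjusted p = 0.064).

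Of the 12 effectors Rsad2, Cmpk2 and Mx1 did not pass and Oasl1 was not tested, while the other 8 rose. Rsad2, which encodes viperin, had 8.60 and 9.35 CPM with FGF2 and 7.42 and 5.63 without (log2 fold change 0.46, SE 0.22, edgeR adjusted p = 0.076). Cmpk2, a nucleotide kinase encoded next to Rsad2, had 30.5 and 25.9 CPM with FGF2 and 27.6 and 31.0 without, and the groups overlapped (log2 fold change -0.06, SE 0.11, edgeR adjusted p = 0.73). Oasl1 was at 1 and 6 counts in the FGF2 libraries and at 8 and 10 in the others and was not tested. Mx1, a dynamin-like GTPase that is defective in C57BL/6 mice, was at 8 and 8 counts in the FGF2 libraries and at 16 and 15 in the others (log2 fold change -0.77, SE 0.57, edgeR adjusted p = 0.30). It was the only member that reached the expression minimum in 1 group alone. Its relative Mx2 had 14.4 and 13.0 CPM with FGF2 and 4.76 and 6.65 without and rose (log2 fold change 1.26, SE 0.20, edgeR adjusted p = 3.3e-09). Mx1 and Mx2 share 843 bases at 95.3% identity.

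Of the 6 other ISGs among the members 5 rose and 1 did not pass, where 20.7% of all tested genes rose. With DESeq2 3 of the 6 rose, against 11.6% of the genes given an adjusted p-value by that tool. Rtp4, a chaperone of membrane receptors that shares 296 exonic bases with Gm45338, had 12.6 and 12.2 CPM with FGF2 and 5.33 and 5.91 without (log2 fold change 1.14, edgeR adjusted p = 3.2e-07). Xaf1, a partner of the apoptosis inhibitor XIAP, had 8.38 and 8.95 CPM with FGF2 and 3.14 and 4.90 without (log2 fold change 1.10, edgeR adjusted p = 3.6e-05). It shares 197 bases at 95.4% identity with Washc4 (637 to 890 counts) and similar stretches with many other genes, so its counts are less certain. Lgals3bp, a secreted binder of galectins, had 45.7 and 46.5 CPM with FGF2 and 30.9 and 30.1 without (log2 fold change 0.60, edgeR adjusted p = 3.7e-08). In these 3 genes the groups did not overlap, and the libraries of a group lay close together for Rtp4 and Lgals3bp but not for Xaf1 without FGF2. Ifi27 had 21.3 and 23.5 CPM with FGF2 and 15.2 and 15.5 without (log2 fold change 0.54, edgeR adjusted p = 4.5e-04, DESeq2 adjusted p = 0.053). Ifi44 was at 28 and 33 counts in the FGF2 libraries and at 17 and 13 in the others (log2 fold change 1.19, edgeR adjusted p = 0.015, DESeq2 adjusted p = 0.18), and it did not pass when FGF2 replicate 2 (log2 fold change 1.12) or no FGF2 replicate 2 (0.98) was left out. Ifi35 was at 27 and 34 counts in the FGF2 libraries and at 17 and 26 in the others, and its log2 fold change of 0.67 did not pass (SE 0.39, edgeR adjusted p = 0.16).

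**Figure D3:**
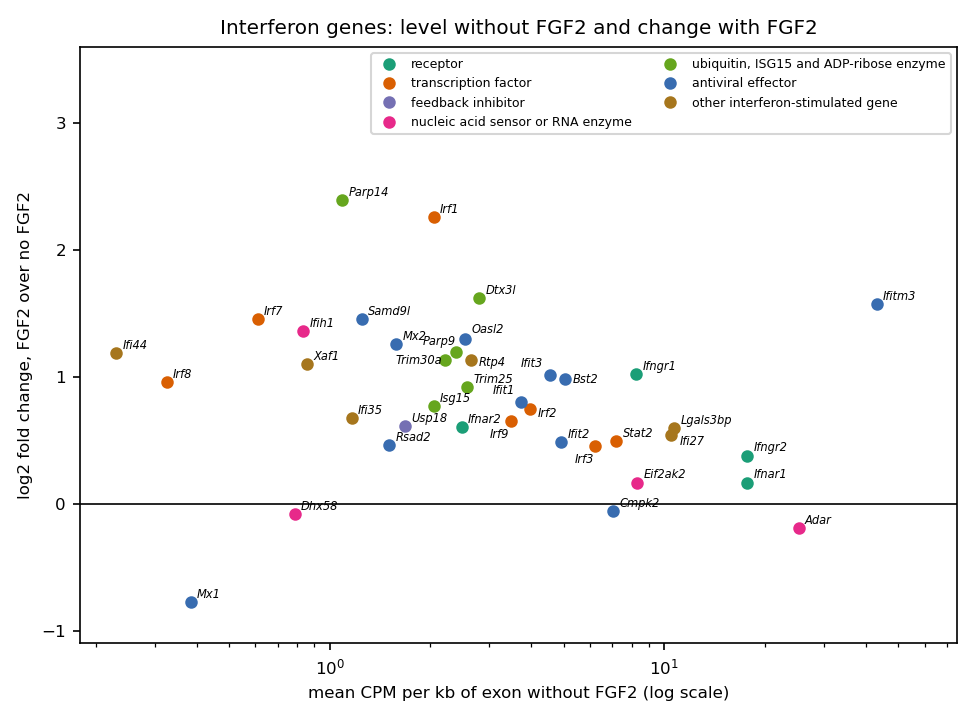
Mean level without FGF2 in CPM per kilobase of exon (log axis) against the log2 fold change with FGF2 for the 39 tested members, coloured by role. Parp14 and Irf1 lie highest at low levels of 1.09 and 2.04 CPM per kb, whereas Ifitm3 is at 43.1 CPM per kb with a log2 fold change of 1.58. The level without FGF2 is also the base of the fold change, so the 2 axes are not independent. With FGF2 Parp14 and Irf1 were at 5.72 and 9.79 CPM per kb.

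Transcripts of the interferons themselves were at or under 3 counts in every library. Of 21 interferon genes (type I, type III and Ifng), 18 had 0 counts in every library and the other 3 had at most 3 counts in a library, where 3 counts correspond to between 0.278 and 0.327 CPM. Transcripts below that limit were not detectable at this depth. Lymphocyte markers were likewise at 0 counts for 5 of 6 genes, with a highest count of 1.

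Among 13 other JAK-STAT genes 10 rose with edgeR and 4 with DESeq2, and 0 fell with either, with a median log2 fold change of 0.38 over the 12 tested. Over all genes 20.7% of those tested rose with edgeR, and 11.6% of those given an adjusted p-value rose with DESeq2. Jak1 was at 204 and 195 CPM with FGF2 and 210 and 214 without (log2 fold change -0.09, edgeR adjusted p = 0.14), while Jak2 rose by 0.18 and Tyk2 by 0.38 on the log2 scale (edgeR adjusted p = 0.014 and 0.0014), neither of which passed with DESeq2 (adjusted p = 0.17 and 0.080). The highest values were those of Il10rb (1.52), a receptor chain of interferon lambda and IL-10, of Socs3 (1.49) and Stat3 (1.11), which belong to cytokine signalling through gp130, and of the phosphatases Ptpn6 (1.01, DESeq2 adjusted p = 0.22) and Ptpn2 (0.49). Il10rb was at 9 and 26 counts without FGF2, and its log2 fold change was 0.96 and did not pass when no FGF2 replicate 1 was left out, and 2.44 when replicate 2 was. Stat3 had 328 and 323 CPM with FGF2 and 152 and 150 without (edgeR adjusted p = 4.2e-118) and stood at 15.8 CPM per kb of exon without FGF2.

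Upstream of interferon, 9 of 16 sensing genes rose and 1 fell, where 20.7% of all tested genes rose and 19.9% fell. Ddx58, which encodes RIG-I, had 46.1 and 47.4 CPM with FGF2 and 19.9 and 18.8 without (log2 fold change 1.27, edgeR adjusted p = 2.8e-28). The adaptor Myd88 rose by 1.47, the endotoxin receptor Tlr4 by 1.37 and the double-stranded RNA receptor Tlr3 by 0.88 on the log2 scale. Irf5 was at 2.81 but rested on 3 and 4 counts without FGF2. Traf3, an adaptor of this list that is named because it alone passed in this direction, fell by 0.26 (edgeR adjusted p = 2.0e-04).

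A further list held 48 ISGs outside the group. This list too was chosen with earlier results of these data known, so it is no independent check of the members. Of the 48 genes 20 (41.7%) rose and 0 fell, where 20.7% of all tested genes rose and 19.9% fell. Another 15 did not pass and 13 had too few counts, with a median log2 fold change of 0.66 over the 35 tested. The largest rises at 1 CPM or more were Slfn2 (2.94, on 4 and 3 counts without FGF2), Herc6 (1.57), Nlrc5 (1.45), Ddx60 (1.35) and Gm4951 (1.34). Nlrc5, an activator of MHC class I genes, had 37.6 and 36.5 CPM with FGF2 and 13.4 and 13.7 without. With DESeq2 13 of the 48 rose, where 11.6% of the genes given an adjusted p-value by that tool rose.

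**Figure D4:**
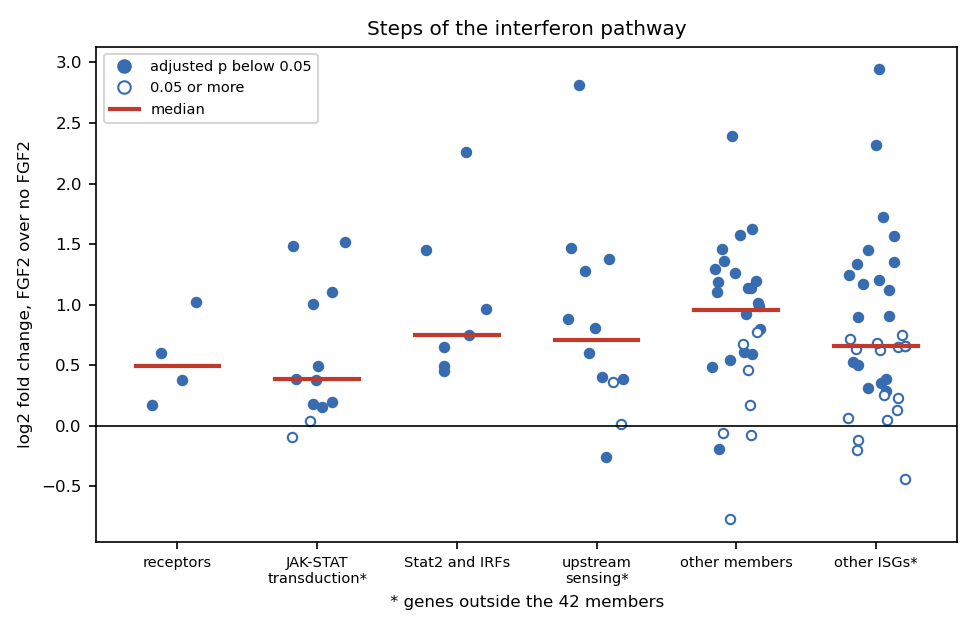
The log2 fold change with FGF2 for the tested genes of each step of the pathway, with members and, marked by an asterisk, genes outside the 42 members. Filled points had an adjusted p-value below 0.05 (edgeR) and red bars are medians, which were 0.49 for receptors, 0.38 for JAK-STAT transduction, 0.75 for Stat2 and the IRFs, 0.70 for upstream sensing and 0.66 for the other ISGs.

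The cell type markers of the cultures differed between the groups as well. Astrocyte markers rose in 8 of 10 and fell in 1, oligodendrocyte lineage markers rose in 9 of 10, and neuron markers fell in 9 of 10 and rose in 1. Of all tested genes 20.7% rose and 19.9% fell. The summed level of the astrocyte markers was 12753 and 12628 CPM with FGF2 and 7793 and 7742 without. Gfap made up a large part of this sum, at 5945 and 5641 CPM with FGF2 and 2781 and 2770 without. The median log2 fold change of the 10 astrocyte markers was 0.41, S100b did not pass and Fgfr3 fell. The summed level of the oligodendrocyte lineage markers was 1864 and 1873 CPM with FGF2 and 560 and 569 without. The neuron markers summed to 3699 and 3824 CPM with FGF2 and 5381 and 5367 without. Endothelial markers rose in 1 and fell in 1 of 6 with Cldn5 at 0, and meningeal fibroblast and mural markers rose in 2 and fell in 2 of 7. The part of these cell types in the rise of the interferon genes was not tested.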

How the data were processed

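RNA of 4 libraries was analysed, 2 per group as given by the sample titles. The authors mapped reads to mm10 with HISAT2 2.1.0, kept mapping quality 20 and over with Samtools, counted with HTSeq 0.11.2 and deposited raw counts per gene without normalization. The annotation release and strand setting are not given in the sources used here. Identifiers were matched to GENCODE M21 for 55240 of 55421 genes, which gave names, mm10 coordinates and exonic lengths. Tallies that name no gene (44.9% to 47.35% of read pairs) were left out. Counts were tested with edgeR 4.0.16 in R 4.3.3 (TMM, expression filter by group, robust quasi-likelihood test, Benjamini-Hochberg adjustment, SE from the fold change and its F statistic), and the script was checked on simulated counts. The text names all 42 members and, of each other pathway list, up to 5 genes past the threshold with the largest change and a mean of at least 1 CPM, besides Jak1, Jak2 and Tyk2, and 1 further gene of that rule is not reported here. The members and lists were chosen with earlier results of these data known. Transcripts were compared with BLAST 2.17.0 (at least 100 bases at 95% identity). Settings varied were the scaling (RLE, upper quartile, or total counts), no filter, at least 10 counts in every library, DESeq2 1.42.0, limma-voom 3.58.1, a prior count of 2, a threshold of 0.01, the replicate number as a block, and each library left out. Counting limits of 3 counts cover counting error only. Replicates differed by more than sampling noise (chi-square per degree of freedom 2.29 with FGF2 and 1.76 without) and were kept apart. The common coefficient of variation between replicates fitted by edgeR, beyond counting noise, was 3.9%. Neither value shows whether the libraries of a group came from separate cultures.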

Additional observations from a re-analysis of the deposited data

How the results depend on the processing

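The log2 fold changes of the 39 tested members kept their direction under each scaling, filter and tool that tested them. Among the fits without 1 library, 3 of the members that did not pass changed sign, with ranges of -0.42 to 0.20 for Dhx58, -0.0062 to 0.31 for Eif2ak2 and -0.18 to 0.055 for Cmpk2. The number of members that rose was between 25 and 29 without 1 library, and 25 of the 31 rose in every such fit. The number that fell was between 0 and 1. With DESeq2, 2068 genes rose and 1931 fell over all genes, with 13 of the other ISGs and 12 of the other pathway genes rising, and 8 of the 31 members no longer passed. Of the other ISGs 1 fell with upper quartile and 1 with total count scaling, and 2 other pathway genes fell with upper quartile scaling. The median log2 fold change of the members stayed between 0.75 and 0.83 without 1 library. Libraries with the same number did not deviate together (correlation 0.0046 over genes), so the number is no evidence of pairing. With the replicate number as a block, 3476 genes rose and 3338 fell, and 31 members rose and 1 fell as without it. Depth limits Socs1, Zbp1, Oasl1 and the interferon genes. Isg15, Ifi35, Dhx58, Mx1 and Ifi44, of which Ifi44 is counted among the members that rose, rest on at most 34 counts per library.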
